A study of Mus musculus with 3 samples.

Results

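Transcript levels of 6 early (primary) neutrophil granule genes were examined in 3 mouse acute myeloid leukemias that lack the microRNA miR-196b. The genes were taken by symbol: Mpo, Elane, Prtn3, Ctsg, Ms4a3 and Serpinb1a. All 6 were found, each on a single row, among the 28074 gene symbols of the deposited table. The choice went by symbol and set no threshold on their values.

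Spleens of 3 moribund mice gave 1 leukemia each, and the mice are called mouse 1, 2 and 3 only to name them. The genotype given for all 3 is miR196b-/-, Dnmt3afl/fl, Flt3ITD/ITD, Mx1Cre: a deleted miR-196b gene, floxed alleles of the DNA methyltransferase gene Dnmt3a, an internal tandem duplication in the growth factor receptor gene Flt3, and a Cre recombinase driven by the interferon-inducible Mx1 promoter. The sample titles instead give Dnmt3a+/-, and ages are not in the labels. Cells bearing c-Kit (CD117), a receptor of immature blood cells, were enriched with magnetic beads before RNA was extracted, and kits and protocols name both ribosomal depletion and an mRNA preparation. Control leukemias that keep miR-196b are part of another series and were not analysed here, so the values below describe 1 genotype and carry no test between groups. Values are TPM, a unit of transcript abundance that corrects for transcript length and can be compared between genes. The 3 columns summed to between 927169 and 929731 TPM, and the depth behind them is unknown beyond the 30000000 reads planned per library. Kit itself stood at 139, 149 and 133 TPM in mice 1, 2 and 3, and Cd34, another marker of immature cells, at 202, 141 and 137 TPM.

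Primary granules, also called azurophil granules, are the first granules a neutrophil precursor builds, at the promyelocyte stage. They store myeloperoxidase, an enzyme that makes hypochlorous acid from hydrogen peroxide, together with serine proteases that digest engulfed microbes. Their genes are transcribed in a short window of granulocyte and monocyte progenitors under factors such as C/EBP, PU.1, MYB and RUNX1, and are switched off before the specific and gelatinase granules are made. Ms4a3 and Serpinb1a are not granule enzymes: Ms4a3 encodes a membrane-spanning protein typical of granulocyte and monocyte progenitors, and Serpinb1a a mainly cytosolic inhibitor of the granule proteases.

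The 6 genes lie at 5 places in the genome (mm10, GENCODE M21 gene models). Elane (chr10:79886247-79888215, plus strand) and Prtn3 (chr10:79874476-79883174, plus strand) are neighbours separated by 3.07 kb. Mpo lies at chr11:87793581-87804413 on the plus strand. Ctsg is at chr14:56099881-56102574, Ms4a3 at chr19:11629496-11640851 and Serpinb1a at chr13:32842092-32851185, all on the minus strand. Every one is annotated as protein-coding, and the longest exon counts per transcript are 14 for Mpo, 7 for Ms4a3 and Serpinb1a, and 5 for each of the 3 protease genes.

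Sequence upstream of the RefSeq start sites is shown because Elane, Prtn3, Ctsg and Mpo hold the same short ETS-type word, whereas Ms4a3 does not. The letters are RefSeq promoters (GRCm38.p6, the assembly also called mm10), read 5′ to 3′ on the gene's own strand from 250 bases before the RefSeq start site. Each stops before the first base within that window that GENCODE annotates as exon, which leaves 185 bases for Elane, 197 for Prtn3, 47 for Mpo and 250 for Ctsg and Ms4a3. The Prtn3 stretch lies inside the longer GENCODE gene given above, so exon bases of longer annotated transcripts also come before it. Capitals mark whole matches, on either strand, to 4 words: GAGGAA (ETS factors such as PU.1), AACNG (MYB), TGTGGT (RUNX) and TTNNGNAA (C/EBP).
Elane promoter, chr10:79886062-79886246 (+ strand): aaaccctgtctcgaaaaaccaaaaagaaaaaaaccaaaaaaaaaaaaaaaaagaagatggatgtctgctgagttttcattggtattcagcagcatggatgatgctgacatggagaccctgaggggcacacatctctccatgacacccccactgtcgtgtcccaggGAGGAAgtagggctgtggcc
Prtn3 promoter, chr10:79879417-79879613 (+ strand): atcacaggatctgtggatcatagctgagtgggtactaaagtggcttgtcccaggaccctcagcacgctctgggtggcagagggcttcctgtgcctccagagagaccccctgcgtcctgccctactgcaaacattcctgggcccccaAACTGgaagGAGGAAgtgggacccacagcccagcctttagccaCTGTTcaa
Ctsg promoter, chr14:56102575-56102824 (- strand): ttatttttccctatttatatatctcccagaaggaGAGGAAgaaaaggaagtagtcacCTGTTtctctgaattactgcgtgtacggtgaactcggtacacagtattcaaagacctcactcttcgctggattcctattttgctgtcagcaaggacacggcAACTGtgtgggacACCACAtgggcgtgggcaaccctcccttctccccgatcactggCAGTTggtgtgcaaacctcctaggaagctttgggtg
Mpo promoter, chr11:87793534-87793580 (+ strand): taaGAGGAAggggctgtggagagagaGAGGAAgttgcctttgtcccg
Ms4a3 promoter, chr19:11640852-11641101 (- strand): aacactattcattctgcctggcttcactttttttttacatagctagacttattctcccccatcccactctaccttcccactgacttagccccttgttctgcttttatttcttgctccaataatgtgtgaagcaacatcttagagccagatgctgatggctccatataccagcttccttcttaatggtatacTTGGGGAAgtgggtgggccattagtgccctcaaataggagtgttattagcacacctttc
No entry for Serpinb1a was matched.

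In the full 250-base windows, GAGGAA occurred in 4 of the 5 promoters, beginning 85 bases before the start site in Elane, 95 in Prtn3, 216 in Ctsg and, as a pair, 247 and 224 in Mpo. Among all 32851 RefSeq promoters of that length, 23.3% held this word. The adjacent Elane and Prtn3 promoters also shared AACGG, a form of AACNG picked out after the matches were seen. It began 50 and 55 bases before their start sites, and its own share over all promoters was not counted. In Elane this word lies in the stretch annotated as exon, and in Prtn3 the exon begins within it, so neither is printed whole. AACNG occurred 2 times in Elane, 3 times in Prtn3 and Ctsg, once in Mpo and not in Ms4a3, and 74.2% of all promoters held it. The RUNX word was found only in the Ctsg window among these 5, 79 bases before the start (14.0% of all promoters). The C/EBP word was found only in that of Ms4a3, 59 bases before it (36.8%). These matches describe letters, not binding.

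All 6 genes were expressed in every leukemia, and all 6 were at their lowest in mouse 2. The summed level was 2888 TPM in mouse 1, 2038 TPM in mouse 2 and 3883 TPM in mouse 3, a mean of 2936 ± 924 TPM (SD, n = 3). This was 0.311%, 0.220% and 0.418% of the respective column sums. Mouse 3 thus carried 1.91 times the summed level of mouse 2, with mouse 1 between them. In bulk RNA, fewer cells of a type and less RNA per cell cannot be told apart. Of all 15181 genes with a mean of at least 1 TPM, called expressed here, 33% were lowest in mouse 2.

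**Figure D1:**
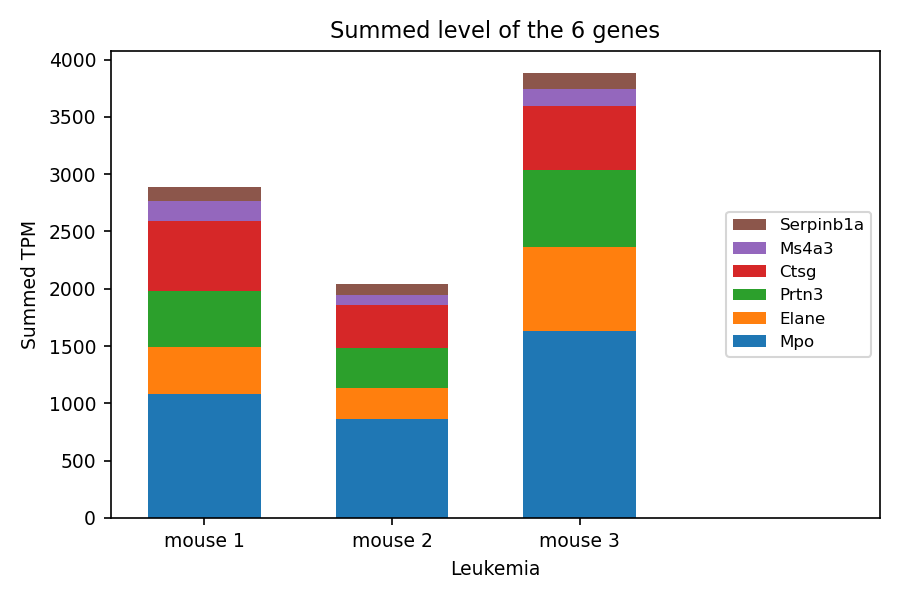
Summed TPM of the 6 early granule genes in each of the 3 leukemias, with each gene as 1 segment of a bar that starts at 0. The bars reach 2888, 2038 and 3883 TPM, and Mpo is the largest segment in each.

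Mpo, the gene of myeloperoxidase, was the most abundant member. It had 1081 TPM in mouse 1, 864 TPM in mouse 2 and 1632 TPM in mouse 3. Mouse 3 was the highest by a wide margin, and mice 1 and 2 were nearer to each other. The mean was 1192 ± 396 TPM (SD, n = 3), which places Mpo at percentile 99.4 of expressed genes. Its rank among all symbols was 115, 148 and 57 in mice 1, 2 and 3. Mpo made up 37.4%, 42.4% and 42.0% of the 6-gene sum.

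The 3 serine protease genes had similar mean levels, between 473 and 516 TPM. Elane, which encodes neutrophil elastase, had 410, 271 and 736 TPM in mice 1, 2 and 3, a mean of 473 ± 239 TPM. Prtn3, which encodes proteinase 3, had 485, 346 and 670 TPM, a mean of 500 ± 163 TPM. Ctsg, which encodes cathepsin G, had 618, 376 and 552 TPM, a mean of 516 ± 125 TPM (all SD, n = 3). Elane and Prtn3 were highest in mouse 3, whereas Ctsg was highest in mouse 1 and only 0.894 times as high in mouse 3. The means of the 3 genes differ by less than the SD of any of them, so their order by mean is not resolved. Within a mouse the order did change: Ctsg was the highest protease gene in mice 1 and 2, and Elane in mouse 3.

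Serpinb1a, the inhibitor of these proteases, had 125, 93.2 and 140 TPM, a mean of 119 ± 23.8 TPM (SD, n = 3). It was the least variable member, with a coefficient of variation of 19.9% against 50.5% for Elane. The summed TPM of Elane, Prtn3 and Ctsg was 12.1, 10.7 and 14.0 times that of Serpinb1a in mice 1, 2 and 3. This ratio varied 1.32-fold between mice, while the protease sum itself varied 1.97-fold.

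Ms4a3, the membrane protein of granulocyte and monocyte progenitors, had 169, 87.5 and 152 TPM, a mean of 136 ± 42.9 TPM (SD, n = 3). Mice 1 and 3 lay close together, and mouse 2 was at 0.519 times the level of mouse 1. Ms4a3 and Serpinb1a were therefore near each other in mean level, their difference being smaller than the SD of either, and below Mpo and the proteases in every mouse.

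**Figure D2:**
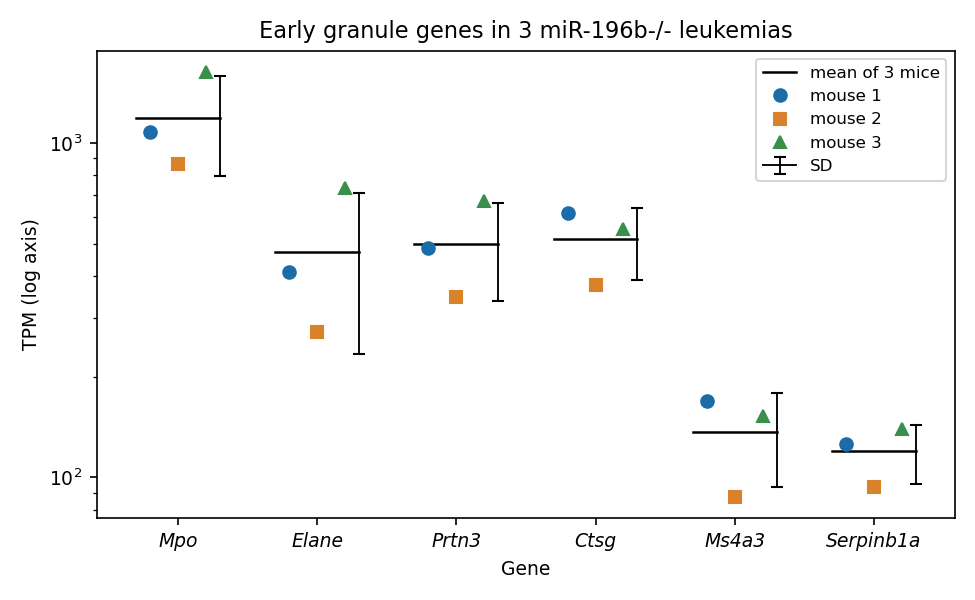
TPM on a log axis for each of the 6 genes, with 1 symbol per mouse, a horizontal line at the mean and a bar of 1 SD on each side (n = 3). The square of mouse 2 is the lowest symbol for all 6 genes, and mouse 3 is the highest for Mpo, Elane, Prtn3 and Serpinb1a.

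The spread between mice was set beside that of all expressed genes, as the ratio of the highest to the lowest mouse after adding 1 TPM to each value. Elane alone of the 6 reached 2-fold, at 2.71-fold, and 8.57% of expressed genes did so. Among the 1202 genes with a mean at least that of Serpinb1a, the lowest member, the share was 4.99%. Only mice 3 and 2 were that far apart for Elane, and 1.59% of expressed genes were at least 2-fold higher in mouse 3 than in mouse 2. Prtn3 followed at 1.93-fold, Ms4a3 at 1.92-fold, Mpo at 1.89-fold, Ctsg at 1.64-fold and Serpinb1a at 1.49-fold. The median of the 6 was 1.90-fold, against 1.32-fold over all expressed genes. A count at 2-fold is sensitive to scaling here, because Prtn3, Ms4a3 and Mpo lie just under the threshold: with the libraries scaled to a common upper quartile Prtn3 reached 2.002-fold and the count was 2 of 6, against 8.63% of expressed genes. Elane's call rests on mouse 2 and mouse 3, and without either of them no member reached 2-fold. On the log2(TPM + 1) scale the SD was 0.72 for Elane, 0.51 for Ms4a3, 0.48 for Prtn3, 0.47 for Mpo, 0.37 for Ctsg and 0.30 for Serpinb1a. SDs at least that large were found for 3.84% of expressed genes in the case of Elane and 28.8% in that of Serpinb1a.

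**Figure D3:**
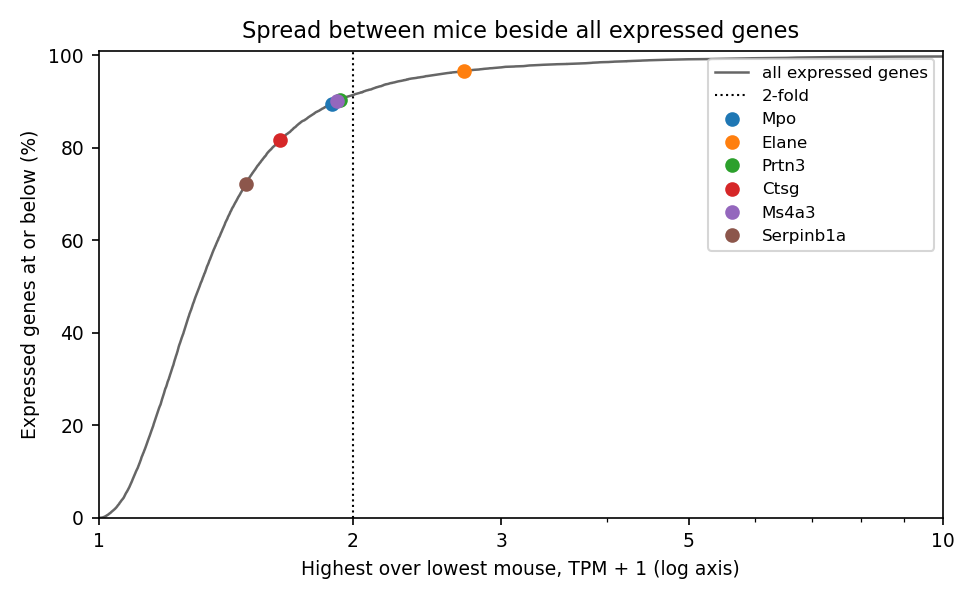
Cumulative share of the 15181 expressed genes (%) against the ratio of the highest to the lowest mouse (TPM + 1, log axis, shown to 10-fold), with the 6 genes as points and a dotted line at 2-fold. Elane lies to the right of the line at 2.71-fold, and Serpinb1a is the farthest left at 1.49-fold.

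The order of mice divided the 6 genes. Mpo, Elane, Prtn3 and Serpinb1a were highest in mouse 3, as were 20.3% of expressed genes. Ctsg and Ms4a3 were highest in mouse 1, as were 48.6%. Scaling to a common upper quartile shifted the log2 values of mouse 1 by -0.08 and those of mouse 3 by 0.07, and changed the background shares to 30.4% in mouse 3 and 35.6% in mouse 1. The assignments of the 6 genes did not change, but mice 1 and 3 were then nearly equal for Ctsg (586 and 578 TPM) and Ms4a3 (160 and 159 TPM). The place of mouse 2 as the lowest for all 6 held under that scaling and under median-ratio scaling, where 33.5% and 33.8% of expressed genes were lowest in it.

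Ratios between members varied less over the 3 mice in some pairs than in others, which with so few mice does not establish a fixed proportion. Mpo exceeded Prtn3 by 2.23, 2.49 and 2.44 times in mice 1, 2 and 3, a 1.12-fold range and the narrowest of the 15 pairs. Ctsg to Ms4a3 was the next narrowest, at 3.66, 4.30 and 3.63, a 1.19-fold range. Elane to Ctsg was the widest: the ratio was 0.664 in mouse 1, 0.721 in mouse 2 and 1.33 in mouse 3, a 2.01-fold range. Elane was thus below Ctsg in mice 1 and 2 and above it in mouse 3. Elane and Prtn3, although adjacent on chromosome 10, did not keep a constant ratio either, with 0.847, 0.783 and 1.10.

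For each member, the 3 genes with the nearest profile were taken among 9515 genes with a mean of at least 10 TPM, by Euclidean distance between log2(TPM + 1) values centred on each gene's mean. With only 3 mice such likeness is a description. Mpo was nearest to Sort1 (distance 0.026), Mylpf and Gm10157. Elane was nearest to Hp (0.045), the gene of haptoglobin, followed by F13a1 and Car2, and only 2 genes lay within a distance of 0.1 of it. Hp had 74.4, 50.3 and 132 TPM in mice 1, 2 and 3. Prtn3 was nearest to Alad (0.024), an enzyme of heme synthesis, then to the protease gene Ctse and to Gsr, glutathione reductase. Ctsg was nearest to Cenpm, Tuba4a and Asrgl1. Ms4a3 was nearest to the glutathione transferase gene Gstm1 (0.008), which had 142, 73.9 and 129 TPM, then to Rpl30-ps10 and Gclm. Serpinb1a was nearest to Minpp1, Cdk1 and Cenpn, and 79 genes lay within 0.1 of its flatter profile. No member was among the 3 nearest genes of another: the closest pair, Mpo and Prtn3, were in place 11 and place 9 of each other's lists.

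Other contents of the azurophil granule were spread over a wide range and did not share 1 order of mice. Of 11 listed genes 10 were expressed. Of these 10, 4 were lowest in mouse 2 (33% of expressed genes) and 5 in mouse 1 (24.4%). As deposited, 4 were highest in mouse 3 (20.3% of expressed genes), and after upper-quartile scaling 7 were (30.4%). Lyz2, which encodes lysozyme, had 194, 450 and 1209 TPM. It was the only 1 of the 10 to reach 2-fold, at 6.21-fold, and 8.57% of expressed genes did so. After upper-quartile scaling 2 of the 10 did (8.63% of expressed genes). Srgn, which encodes the proteoglycan serglycin that packs granule contents, had 648, 595 and 635 TPM and varied least of the 10, at 1.09-fold. Prss57, the gene of a further granule serine protease, had 27.2, 17.4 and 28.0 TPM, with mouse 2 lowest. The median of the list's ratio of highest to lowest mouse was 1.47-fold over its expressed members.

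Myeloperoxidase needs a heme group and folding by endoplasmic reticulum chaperones, and the serine proteases are activated by the peptidase Ctsc. All 13 genes listed for these steps were expressed, and as deposited none reached 2-fold (8.57% of expressed genes did). Of the 13, 9 were highest in mouse 3 (20.3% of expressed genes) and 7 lowest in mouse 2 (33%). With the 8 heme synthesis enzymes set apart, a split made after the values were seen, 6 of 8 were lowest in mouse 2 (33% of expressed genes) and 7 highest in mouse 3 (20.3%). After upper-quartile scaling all 8 were highest in mouse 3 (30.4% of expressed genes) and 2 of them passed 2-fold (8.63%). Alas1, which encodes the first enzyme of the pathway, had 93.7, 59.1 and 116 TPM, and Alad had 31.5, 22.6 and 44.9 TPM. Of the other 5 genes 1 was lowest in mouse 2 (33% of expressed genes). Calr, the chaperone calreticulin, had 688, 756 and 829 TPM, and the chaperone gene Hspa5 had 500, 716 and 660 TPM. Erythroid cells also make heme, and the 7 expressed erythroid markers were all lowest in mouse 2 (33% of expressed genes). The summed level over the 8 of 10 listed erythroid genes with values was 66.5, 40.7 and 105 TPM. The listed globin genes Hbb-bs and Hbb-bt matched no symbol and are not in this sum. The part of erythroid cells in the heme enzyme values was not tested.

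**Figure D4:**
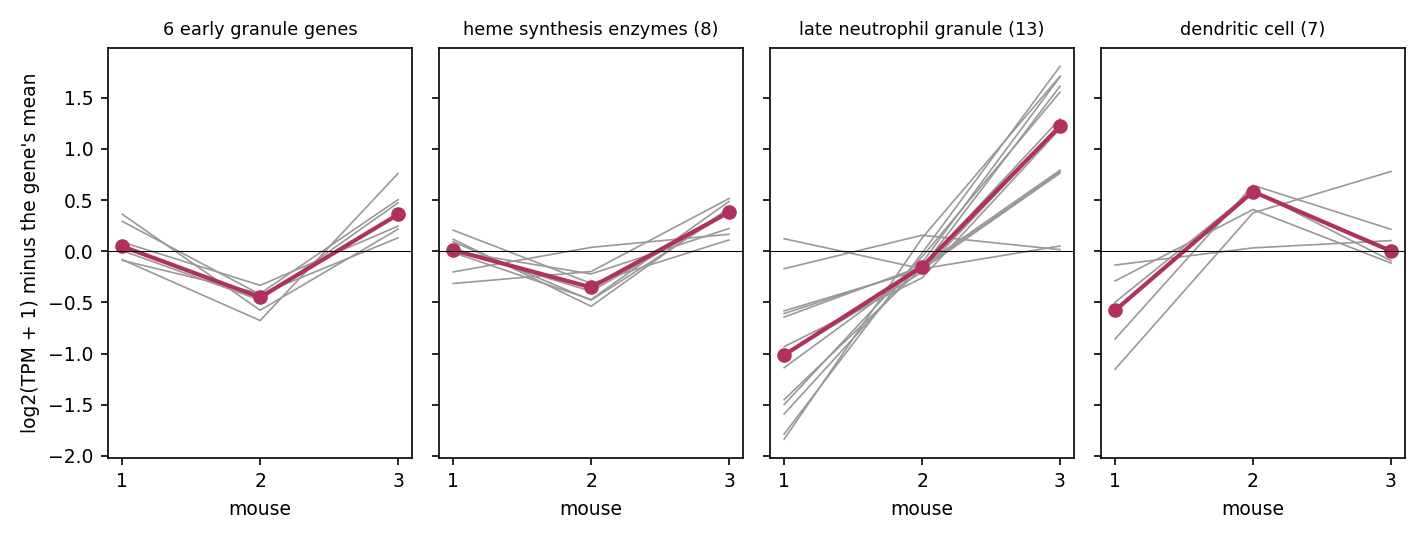
Each grey line joins 1 gene's log2(TPM + 1) values in mice 1, 2 and 3 after subtracting the gene's mean, and the coloured line joins the medians. The early granule genes and the 8 heme enzymes have their lowest median in mouse 2. The 13 genes of the late neutrophil granule list have theirs in mouse 1, and the 7 dendritic cell genes are highest in mouse 2 by the median.

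Protease inhibitors other than Serpinb1a were low. Of 11 listed, 3 had a mean of at least 1 TPM. Slpi, a secreted inhibitor of elastase and cathepsin G, had 14.4, 9.42 and 24.2 TPM. Serpinb6a had 15.7, 14.3 and 9.99 TPM, and Serpinb6b had 5.05, 13.3 and 14.5 TPM. The alpha-1-antitrypsin genes Serpina1a to Serpina1e were listed at 0 in all 3 mice. Serpinb1b and Serpinb1c, the closest relatives of Serpinb1a, had means of 0.116 and 0.0554 TPM (Serpinb1b was chosen after its values were seen). Reads can be split among such relatives: 10.2% of the 31-base words of Serpinb1a transcripts also occur in transcripts of other genes, 5.94% in Serpinb1b and 5.46% in Serpinb1c. For Elane and Ctsg the share was 0%.

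Genes of the same progenitor stage whose products are not primary granule proteases were next. All 10 were expressed, 5 of them reached 2-fold (8.57% of expressed genes did), and 8 were highest in mouse 3 (20.3% of expressed genes). After upper-quartile scaling 9 were highest in mouse 3, against 30.4% of expressed genes. Plac8 had 686, 604 and 885 TPM. Ly6c2, a surface antigen of monocytes and their progenitors, had 291, 229 and 559 TPM. Fcnb, which encodes ficolin B, had the widest range, with 16.9, 44.4 and 186 TPM. Of the 10, 5 were lowest in mouse 1 and 5 in mouse 2, as were 24.4% and 33% of expressed genes.

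Transcription factors known to act on granule genes did not share 1 order. Of 10 listed, 3 were lowest in mouse 2, near the share of 33% of expressed genes. As deposited 2 reached 2-fold (8.57% of expressed genes), and 1 did after upper-quartile scaling (8.63%). Irf8, a factor of monocyte and dendritic cell fate, had 716, 1256 and 775 TPM, and Spi1, which encodes PU.1, had 185, 264 and 225 TPM. Both were highest in mouse 2, where the 6 granule genes were lowest. As deposited, 3 of the 10 factors were highest in mouse 2 (31.1% of expressed genes) and 5 in mouse 1 (48.6%). Cebpe, which drives the late granule program, had 12.3, 19.3 and 55.8 TPM, with mouse 3 highest. The following were chosen after their values were seen. Myb had 193, 124 and 171 TPM and Gfi1, a repressor needed for neutrophil development, had 33.4, 15.8 and 25.3 TPM. Cebpb had 23.6, 15.3 and 23.2 TPM. These 3, the only factors of the 10 lowest in mouse 2, had the order of mice of Ctsg and Ms4a3. The share of expressed genes with that full order was not counted. Cebpa had 63.5, 43.7 and 37.2 TPM.

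Genes of the late neutrophil granule list differed from the early ones in which mouse was lowest. The list also holds genes whose products are not granule contents, among them S100a8, S100a9, Padi4 and Cxcr2. Of the 13 listed, 12 were lowest in mouse 1, as were 24.4% of expressed genes. All 6 early genes were instead lowest in mouse 2, as were 33%. In the late list 11 reached 2-fold (8.57% of expressed genes), with a median of 4.71-fold. The summed level of the late list was 2702, 6789 and 22275 TPM in mice 1, 2 and 3. S100a8 and S100a9 had the highest means of the list and are part of this sum. S100a8 had 1034, 2529 and 8646 TPM, S100a9 had 616, 1719 and 6057 TPM, and Camp, the cathelicidin gene, had 122, 417 and 1480 TPM. The median log2 difference of mouse 3 from mouse 1 was 2.24 in the late list and 0.31 in the 6 early genes. Between mice 2 and 1 the early median was -0.54. Counts of this kind have no test with 1 library per mouse.

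Markers of other cells moved with the mice as follows. Dendritic cell genes had a summed level of 395, 874 and 598 TPM, all 7 were lowest in mouse 1 (24.4% of expressed genes) and 5 were highest in mouse 2 (31.1%). Clec9a led them with 184, 415 and 273 TPM. The 10 monocyte and macrophage genes, 6 of them expressed, summed to 246, 439 and 381 TPM, with Ccr2 highest at 150, 271 and 215 TPM and Csf1r at 8.35, 15.6 and 24.8 TPM. Mast cell and basophil genes summed to 103, 44.8 and 63.5 TPM, with 5 of 10 expressed, Cpa3 and Mcpt8 leading, and the mast cell tryptases Tpsb2 and Tpsab1 at 0 in all mice. Eosinophil genes summed to between 27.9 and 78.4 TPM (5 of 7 expressed) and megakaryocyte genes to between 91.2 and 119 TPM (7 of 7). B cell genes summed to at most 18.0 TPM (4 of 6 expressed) and T and NK cell genes to at most 19.8 TPM (6 of 8). The 7 stem and progenitor genes summed to 678, 570 and 497 TPM. None of them was highest in mouse 3, as were 20.3% of expressed genes. The part of any of these cells in the levels of the 6 granule genes was not tested.

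Most annotated genes within 100 kb of the 6 loci were at far lower levels than the members. Ctsg lies among mast cell protease and granzyme genes: of 10 annotated neighbours with values, 6 were at 0 and 1 exceeded 1 TPM. This was Mcpt8, a basophil protease 14.6 kb away, with 31.4, 12.5 and 17.3 TPM, the same order of mice as Ctsg at a far lower level. Mpo is flanked by the related peroxidase genes Lpo, 2.01 kb away with 0.624, 0.502 and 0.421 TPM, and Epx, 59.6 kb away with 0.105, 1.02 and 2.23 TPM. Downstream of Elane, the serine protease gene Cfd, 2.64 kb away, had 0.180, 0.0947 and 0.0835 TPM. Ptbp1, a splicing regulator 9.70 kb from Prtn3, was as abundant as the proteases, with 478, 407 and 390 TPM, but was lowest in mouse 3, where Elane and Prtn3 were highest. Prss57, 83.5 kb from Prtn3, had the order of mice of Elane and Prtn3 at a far lower level, with 27.2, 17.4 and 28.0 TPM. Near Ms4a3, the family member Ms4a6d, 24.6 kb away, had 64.1, 26.8 and 7.23 TPM and so was also highest in mouse 1, but lowest in mouse 3. Beside Serpinb1a only Wrnip1 exceeded 1 TPM on average, with 21.1, 18.2 and 18.8 TPM.

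Some neighbours overlap members. Gm11505, an antisense gene over Mpo exons, had 5.75, 7.33 and 7.57 TPM and holds 11.6% of the 31-base words of Mpo transcripts. Whether the quantification used strand is not stated, so reads that lie wholly within these shared words cannot be told apart. Gm11505 was listed at under 1% of the Mpo level in each mouse. Prtn3 exons overlap those of Plppr3, which was not analysed here and holds 7.48% of the Prtn3 words.

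**Figure D5:**
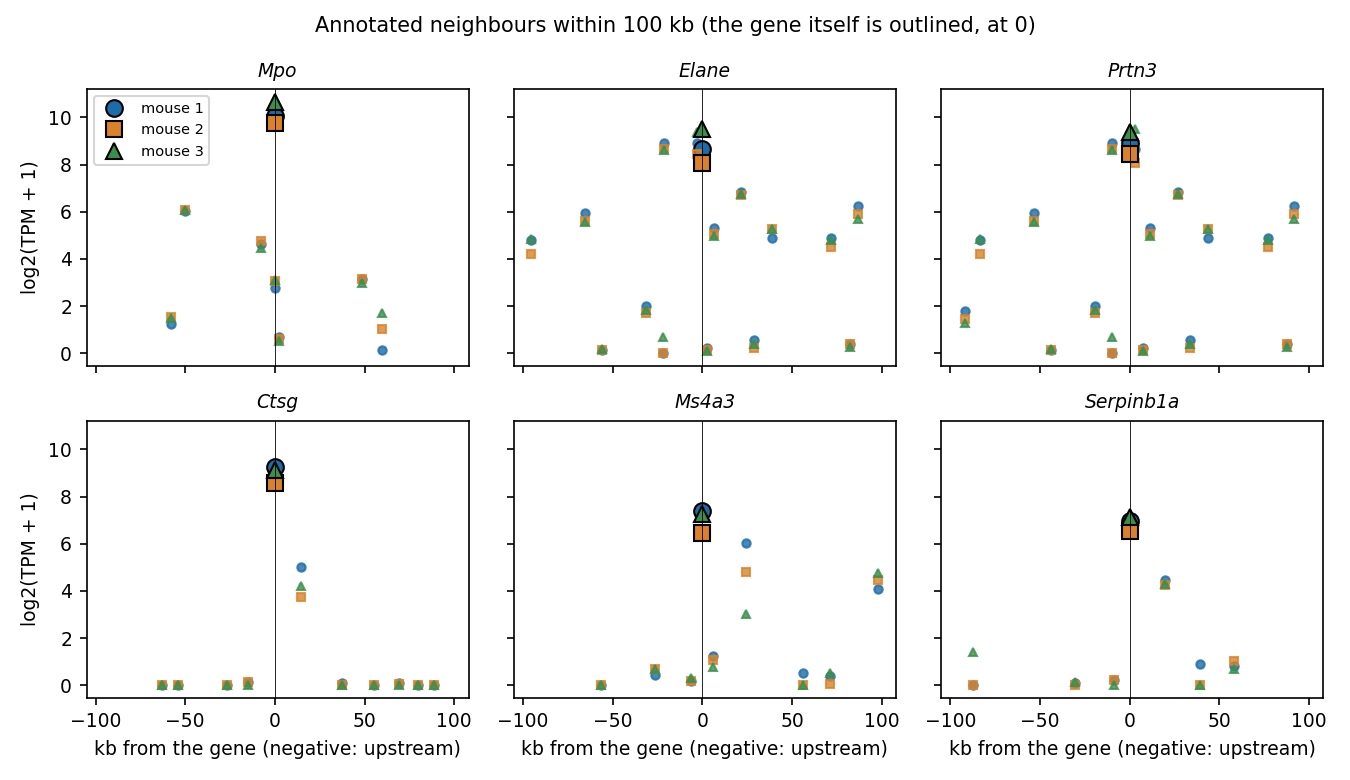
Levels on the log2(TPM + 1) scale of each member (large outlined symbols, at 0) and of the annotated genes with values within 100 kb of it, against distance in kb along the member's own strand, with 1 symbol shape per mouse. The members stand above all plotted neighbours, except that Elane, Prtn3 and Ptbp1 reach similar levels, and 6 neighbours of Ctsg are at 0.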

How the data were processed

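RNA of c-Kit-enriched leukemic spleen cells from 3 mice of 1 genotype was sequenced with paired 150 nt reads, with an RNA integrity number above 8.0 and 30000000 reads planned, per the labels' protocols. The authors deposited 1 table of values per symbol; kallisto and mm10 are named in the submitters' processing notes, with no version, and the annotation is not given in the sources used here. The table's name says log2 FPKM, but the deposited values are linear and the columns sum to nearly the same total (range 0.276% of the mean), so they were taken as TPM. TPM keeps no depth, so no counting interval is given, and exact zeros are reported as listed.

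Rows without a symbol (795) or with a date in its place (27), at most 0.787% of a column, were left out. Values of 90 symbols on several rows were summed. The table's other 3 per-sample columns are of another series and were left aside. Each gene's mean and SD in TPM were computed without a pseudocount. The ratio of highest to lowest mouse per gene and the log2 values used a pseudocount of 1. Expressed genes were the 15181 whose mean TPM was 1 or more. Of 140 listed genes 138 matched, 4 of them under an older symbol. With 1 group no test was possible, and p-values are not given. The 2-fold call, the upper-quartile scaling and the search for near profiles were tested on simulated data. The noise in these was smaller than the median spread of expressed genes, and the other calculations were not tested this way.

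The members and lists were chosen with earlier results of these data known. Named genes are the members, their 3 nearest profiles, neighbours within 100 kb and, of each list, the 2 with the highest mean, the widest and those at 0. The alternatives were scaling, the pseudocount, the filter, mice left out and repeated symbols. Python 3.11.15, numpy 2.4.6, pandas 2.3.3 and matplotlib 3.10.9 were used.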

Additional observations from a re-analysis of the deposited data

How the results depend on the processing

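No paired analysis was possible because only 1 group has samples. The count of early granule genes with a 2-fold range between mice was 1 of 6 as deposited. It was 2 after upper-quartile scaling and 2 after median-ratio scaling, and it ranged from 0 to 1 when each mouse was left out in turn. A pseudocount of 0.1 left it at 1. All 6 genes were lowest in mouse 2 under both scalings and with repeated symbols left out. The mean summed level ranged from 2463 TPM without mouse 3 to 3386 TPM without mouse 2, against 2936 TPM over all 3 mice. Among the genes of the lists, 46 reached 2-fold, and between 22 (without mouse 1) and 36 (without mouse 2) did so with a mouse left out, since fewer mice give a narrower range. Of the 18 nearest-profile genes, 17 were kept after either scaling and 14 with a pseudocount of 0.1. The background share at 2-fold was 13.1% with that pseudocount and 5.40% with no filter. The depth is unknown, so the counting error in low values cannot be stated.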
